A study of Mus musculus with 18 samples.

Results

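RNA-seq of bone marrow progenitors was used to set K9M mice directly against K36M mice, over 4 of the 18 mouse libraries of the series. The comparison takes the 2 K9M libraries (mice 1362 and 1363) and the 2 K36M libraries (mice 1310 and 1312), chosen by genotype and tissue label. The 2 WT libraries of the same tissue stayed out of the main test and are given beside some results, where their position is a description. K9M and K36M mice carried an inducible histone H3 in which methionine replaces lysine 9 or lysine 36, and the WT mice are labelled wildtype; whether the WT mice carried a transgene is not given in the sources used here. All 3 groups were of a hybrid C57B6/129 strain. At 6 to 8 weeks of age the mice were put on drinking water with 2 mg/ml doxycycline, and the drug was common to all groups. The cells were Lin-, cKit+ cells of bone marrow, which lack the surface markers of mature blood lineages and carry the KIT receptor. Polyadenylated RNA was sequenced. The promoter that drives the transgene and the length of treatment are not given in the sources used here. By the labels every library came from its own mouse, so each value below belongs to 1 mouse and each group to n = 2.

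Blood forms from stem cells that branch toward granulocytes and monocytes, toward red cells and platelets, or toward lymphocytes. The transcription factors PU.1 and C/EBP alpha drive the myeloid branch, while GATA1 and KLF1 drive the erythroid branch. Methylation of lysine 9 on histone H3 is known for silent heterochromatin and methylation of lysine 36 for transcribed gene bodies, and a methionine in place of either lysine is known to block the enzymes that methylate that same lysine.

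Counts assigned to genes numbered 17114164 to 20621019 per library, with 19231 to 19747 genes detected. Between mice of 1 genotype the counts varied beyond sampling noise: chi-square over its degrees of freedom was 6.73 for the K9M pair and 7.64 for the K36M pair. No count of the transgene itself was used here, so the genotype labels could not be checked by it. H3f3a, which encodes the replacement histone H3.3 and has near-identical pseudogene copies, had 123 and 134 CPM in K9M mice, against 226 and 200.1 CPM in K36M mice (log2 fold change -0.73 ± 0.08 SE, adjusted p = 0.000144). The second H3.3 gene, H3f3b, had 488 and 448 CPM in K9M mice, against 574 and 608 CPM in K36M mice (log2 fold change -0.34 ± 0.06 SE, adjusted p = 0.00257). Both were lower in K9M mice, and whether transgene reads entered them was not tested. Xist, the RNA of the inactive X chromosome, had 2813 and 3355 CPM in K9M mice, against 2154 and 2354 CPM in K36M mice, and the 4 Y-linked genes examined had at most 1 count in any of the 4 libraries.

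The sorted phenotype could be checked at the transcript level. Kit, the receptor used in the sort, had 495 and 487 CPM in K9M mice, against 294 and 296 CPM in K36M mice (log2 fold change 0.73 ± 0.05 SE, adjusted p = 2.1e-05). It was higher in both K9M mice than in either K36M mouse. Some markers of mature cells were near 0. The T cell receptor component Cd3e had at most 3 counts in any of these libraries and Cd8a at most 1. The neutrophil surface marker Ly6g had 14 and 10 counts in K9M mice, against 2 and 1 in K36M mice. Not all were so low: the macrophage marker Adgre1 had 139 and 163 counts in K9M mice, against 354 and 295 in K36M mice. Fewer cells of a type and less RNA per cell cannot be told apart in these bulk samples, here or in any result below, and the lower Kit level in K36M mice stands beside every lineage difference.

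The 2 mutants differed at most of the expressed genes. Of 14208 genes tested with edgeR's quasi-likelihood test, 8356 passed a Benjamini-Hochberg adjusted p of 0.05, a background of 58.8%. The split was even, with 4189 genes higher in K9M mice (29.5%) and 4167 lower (29.3%), and a median log2 fold change, K9M over K36M, of 0.01. A difference of at least 2-fold was carried by 3060 genes (21.5%), of which 1755 were higher in K9M (12.4% of the genes tested) and 1305 lower (9.18%). For 11525 genes (81.1%) the 2 groups did not overlap. Single gene calls are thus common here, and the lists below are read by their direction, size and median beside these shares.

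The 20 gene lists of lineages and pathways held 553 symbols found in the files, of which 500 passed the filter on low counts; 185 were higher and 192 lower in K9M. The lists fell apart by lineage. Neutrophil, monocyte, B lymphoid, mast cell and stem cell genes had positive medians, red cell and cell division genes negative ones, and platelet genes lay on both sides. Values are CPM, counts scaled to a common library total with TMM factors. "Higher" and "lower" are used of genes that passed the test.

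**Figure D1:**
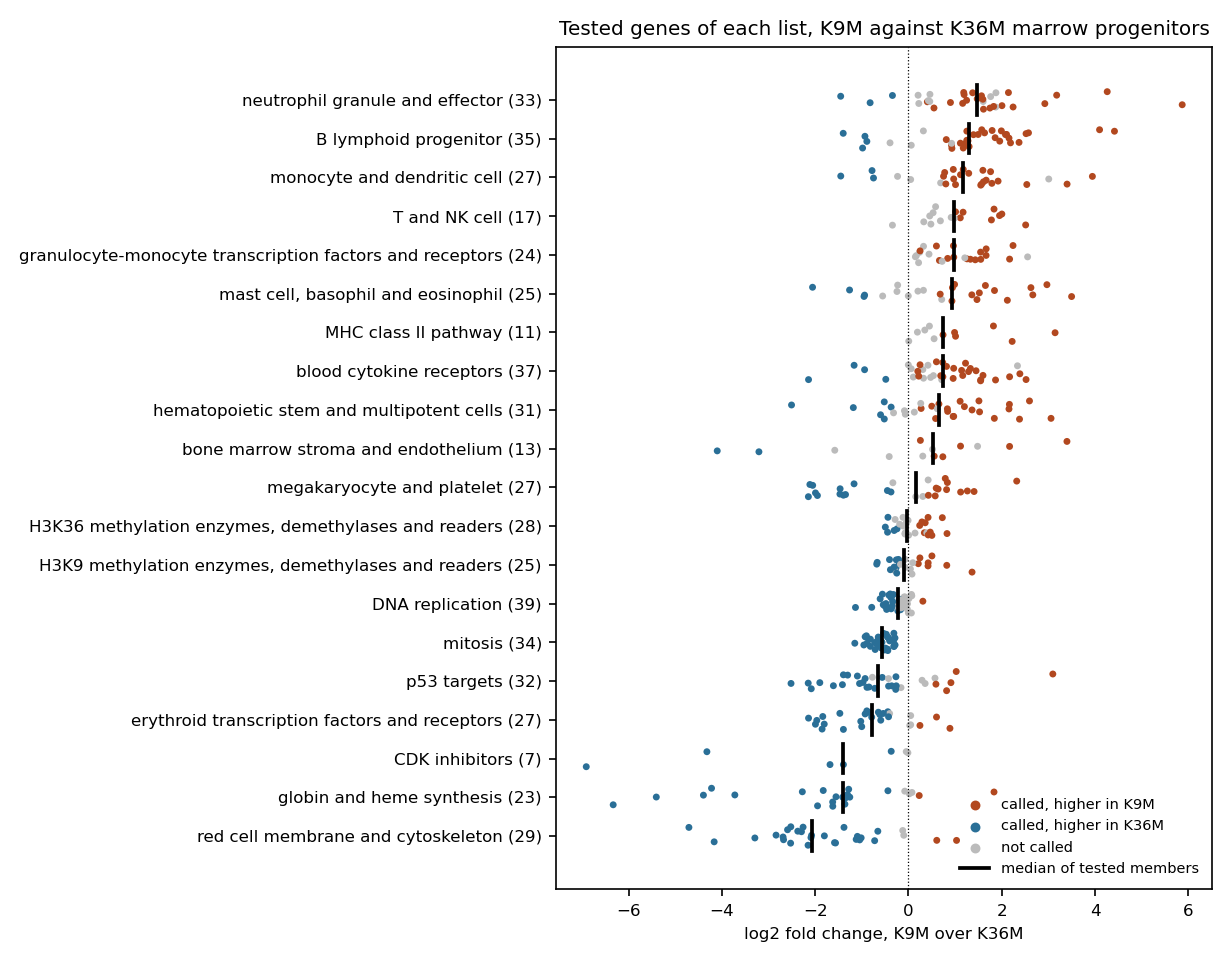
Log2 fold change, K9M over K36M, of every tested gene of the 20 lists (number tested in brackets), with black bars for list medians and lists ordered by median. The neutrophil list has the highest median at 1.47 and the red cell membrane list the lowest at -2.08, with the megakaryocyte list split on both sides of 0.

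Myeloid regulators were higher in K9M progenitors. Of 24 tested transcription factors and receptors of granulocytes and monocytes, 15 were higher and 0 lower (0 of the 24 against a background of 29.3% lower), with a median log2 fold change of 0.97; 9 of the 15 differed by at least 2-fold. Irf8, the transcription factor that directs progenitors toward monocytes and dendritic cells, had 343 and 373 CPM in K9M mice, against 81 and 70.3 CPM in K36M mice (log2 fold change 2.24 ± 0.09 SE, adjusted p = 1.7e-06). Cebpa, which encodes C/EBP alpha, had 189 and 227 CPM in K9M mice, against 83.1 and 71 CPM in K36M mice (log2 fold change 1.43 ± 0.12 SE, adjusted p = 8.79e-05). Spi1, the gene of PU.1, had 159 and 176 CPM in K9M mice, against 96.1 and 74.7 CPM in K36M mice (log2 fold change 0.97 ± 0.13 SE, adjusted p = 0.000882). For these 3 factors each K9M mouse lay above each K36M mouse. The receptors followed: Csf2ra, the alpha chain of the GM-CSF receptor, had 125 and 119.7 CPM in K9M mice, against 30.0 and 24.4 CPM in K36M mice (log2 fold change 2.17 ± 0.10 SE, adjusted p = 4.06e-06). Csf3r, the G-CSF receptor, had 203 and 200.3 CPM in K9M mice, against 80.9 and 56.9 CPM in K36M mice (log2 fold change 1.55 ± 0.17 SE, adjusted p = 0.000979). Csf1r, the M-CSF receptor, had 200.2 and 224 CPM in K9M mice, against 66.5 and 78.6 CPM in K36M mice (log2 fold change 1.55 ± 0.10 SE, adjusted p = 1.38e-05). Not every member differed. Cebpe, a factor of late granulocyte maturation, had 44.1 and 44.4 CPM in K9M mice, against 47.2 and 27.4 CPM in K36M mice and missed the threshold (adjusted p = 0.517), with K36M mouse 1310 above both K9M mice and K36M mouse 1312 below them. Il17ra, the interleukin 17 receptor, was slightly higher, with 188 and 207 CPM in K9M mice, against 155 and 178 CPM in K36M mice (log2 fold change 0.25 ± 0.08 SE, adjusted p = 0.0342), and this call was lost without K9M mouse 1363 or K36M mouse 1310 (adjusted p up to 0.164).

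Neutrophil granule genes showed the widest gap in summed CPM of the 20 lists. The list summed to 20887 and 20152 CPM in K9M mice, against 8258 and 6120.1 CPM in K36M mice, and the K9M mice lay far above both K36M mice. Of 33 tested members 21 were higher in K9M and 3 lower, 18 and 1 of them by at least 2-fold, and the median was 1.47. Mpo, Elane, Prtn3 and Ctsg, 4 genes of the primary granules, which form first in promyelocytes, were all higher in K9M. Mpo, myeloperoxidase, had 9224 and 9221 CPM in K9M mice, against 2306 and 1868 CPM in K36M mice (log2 fold change 2.14 ± 0.10 SE, adjusted p = 1.69e-05). Elane, neutrophil elastase, had 2474 and 2351 CPM in K9M mice, against 695 and 508 CPM in K36M mice (log2 fold change 2.00 ± 0.17 SE, adjusted p = 0.00086). The related serine proteases Prtn3 and Ctsg had log2 fold changes of 1.47 ± 0.24 and 1.19 ± 0.29, and both calls were lost when either K9M mouse was left out (adjusted p up to 0.142 for Prtn3 and 0.223 for Ctsg). The K9M mice were close to each other in this group, while K36M mouse 1312 lay below K36M mouse 1310 for each of the 4.

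Several genes of later granulocyte stages were more uneven between the K36M mice. Chil3, which encodes a secreted chitinase relative made by myeloid cells, had 110.0 and 107 CPM in K9M mice, against 3.07 and 0.500 CPM in K36M mice (log2 fold change 5.87 ± 0.55 SE, adjusted p = 0.00447). Ltf, lactoferrin of the secondary granules, had 90.9 and 71.7 CPM in K9M mice, against 6.35 and 1.94 CPM in K36M mice (log2 fold change 4.26 ± 0.55 SE, adjusted p = 0.0113). The groups were far apart at both genes, but both calls were lost when either K9M mouse was left out (adjusted p up to 0.107 for Chil3 and 0.118 for Ltf). Camp, Ngp and Lcn2, also of the secondary granules, did not pass the test. Mmp8, neutrophil collagenase, did, and its K36M mice were close to each other. It had 16.4 and 15.7 CPM in K9M mice, against 4.86 and 4.17 CPM in K36M mice (log2 fold change 1.83 ± 0.16 SE, adjusted p = 4.52e-05). S100a8, a subunit of the calcium-binding protein calprotectin, had 252 and 249 CPM in K9M mice, against 103 and 44.6 CPM in K36M mice (adjusted p = 0.0985). Its partner S100a9 had 208 and 190.0 CPM in K9M mice, against 95.2 and 35.5 CPM in K36M mice (adjusted p = 0.159). The 2 groups did not overlap for either gene, and K36M mouse 1312 was the lowest of the 4. Without K36M mouse 1310 the number of neutrophil genes called higher in K9M was 31, and without K9M mouse 1362 it was 15, the lowest of the 4 omissions.

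The 3 neutrophil members that were lower in K9M have varied roles. Padi4, the enzyme that converts arginine to citrulline in histones, had 24.3 and 23.2 CPM in K9M mice, against 71.8 and 58.1 CPM in K36M mice (log2 fold change -1.45 ± 0.11 SE, adjusted p = 3.1e-05). Cyba, a membrane subunit of the NADPH oxidase, had 71.5 and 68.7 CPM in K9M mice, against 138 and 109.7 CPM in K36M mice (log2 fold change -0.82 ± 0.11 SE, adjusted p = 0.000706). The integrin chain gene Itgb2 had a log2 fold change of -0.34 ± 0.08. Its usual partner in myeloid cells, Itgam, was higher in K9M at 1.57 ± 0.10, so the 2 chains of this integrin moved in opposite directions. Calr, the endoplasmic reticulum chaperone calreticulin, was abundant and not called, with 2276 and 2087 CPM in K9M mice, against 1847 and 1399 CPM in K36M mice (adjusted p = 0.0598).

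Monocyte and dendritic cell genes followed the same direction. The list summed to 3668 and 3974 CPM in K9M mice, against 1483 and 1458 CPM in K36M mice. Of 27 tested members 20 were higher in K9M and 3 lower, with a median of 1.17. F13a1, the coagulation factor XIII A chain made by monocytes, had 666 and 601 CPM in K9M mice, against 60.8 and 59.1 CPM in K36M mice (log2 fold change 3.40 ± 0.07 SE, adjusted p = 1.68e-07), the most clear-cut member by adjusted p. Ly6c2, a surface marker of monocytes and one of a family with near-identical copies, had 556 and 543 CPM in K9M mice, against 185 and 178 CPM in K36M mice (log2 fold change 1.60 ± 0.06 SE, adjusted p = 1.36e-06). Each K9M mouse stood above each K36M mouse at both genes. Clec9a, a receptor of conventional dendritic cells, had 5.24 and 3.84 CPM in K9M mice, against 0.298 and 0.278 CPM in K36M mice (log2 fold change 3.94 ± 0.36 SE, adjusted p = 5.75e-05). Siglech, a marker of plasmacytoid dendritic cells, had 2.91 and 5.92 CPM in K9M mice, against 0.744 and 0.778 CPM in K36M mice (log2 fold change 2.54 ± 0.41 SE, adjusted p = 0.00116). Both were low in level and higher in each K9M mouse. Against this direction, Zbtb46, a transcription factor of conventional dendritic cells that is also known in erythroid progenitors, had 12.8 and 10.9 CPM in K9M mice, against 34.8 and 29.9 CPM in K36M mice (log2 fold change -1.45 ± 0.13 SE, adjusted p = 5.42e-05). Cx3cr1, the fractalkine receptor, had 22.5 and 23 CPM in K9M mice, against 36.5 and 40.0 CPM in K36M mice (log2 fold change -0.75 ± 0.09 SE, adjusted p = 0.000256). Both were lower in each K9M mouse. Adgre1, which encodes the macrophage marker F4/80 and belongs to no list, had 7.92 and 7.72 CPM in K9M mice, against 17.6 and 16.4 CPM in K36M mice, lower in both K9M mice as a level. Ccr2, the chemokine receptor of classical monocytes, had 119 and 425 CPM in K9M mice, against 35.5 and 32.2 CPM in K36M mice; the K9M mice differed from each other so widely that it was not called (adjusted p = 0.114).

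**Figure D2:**
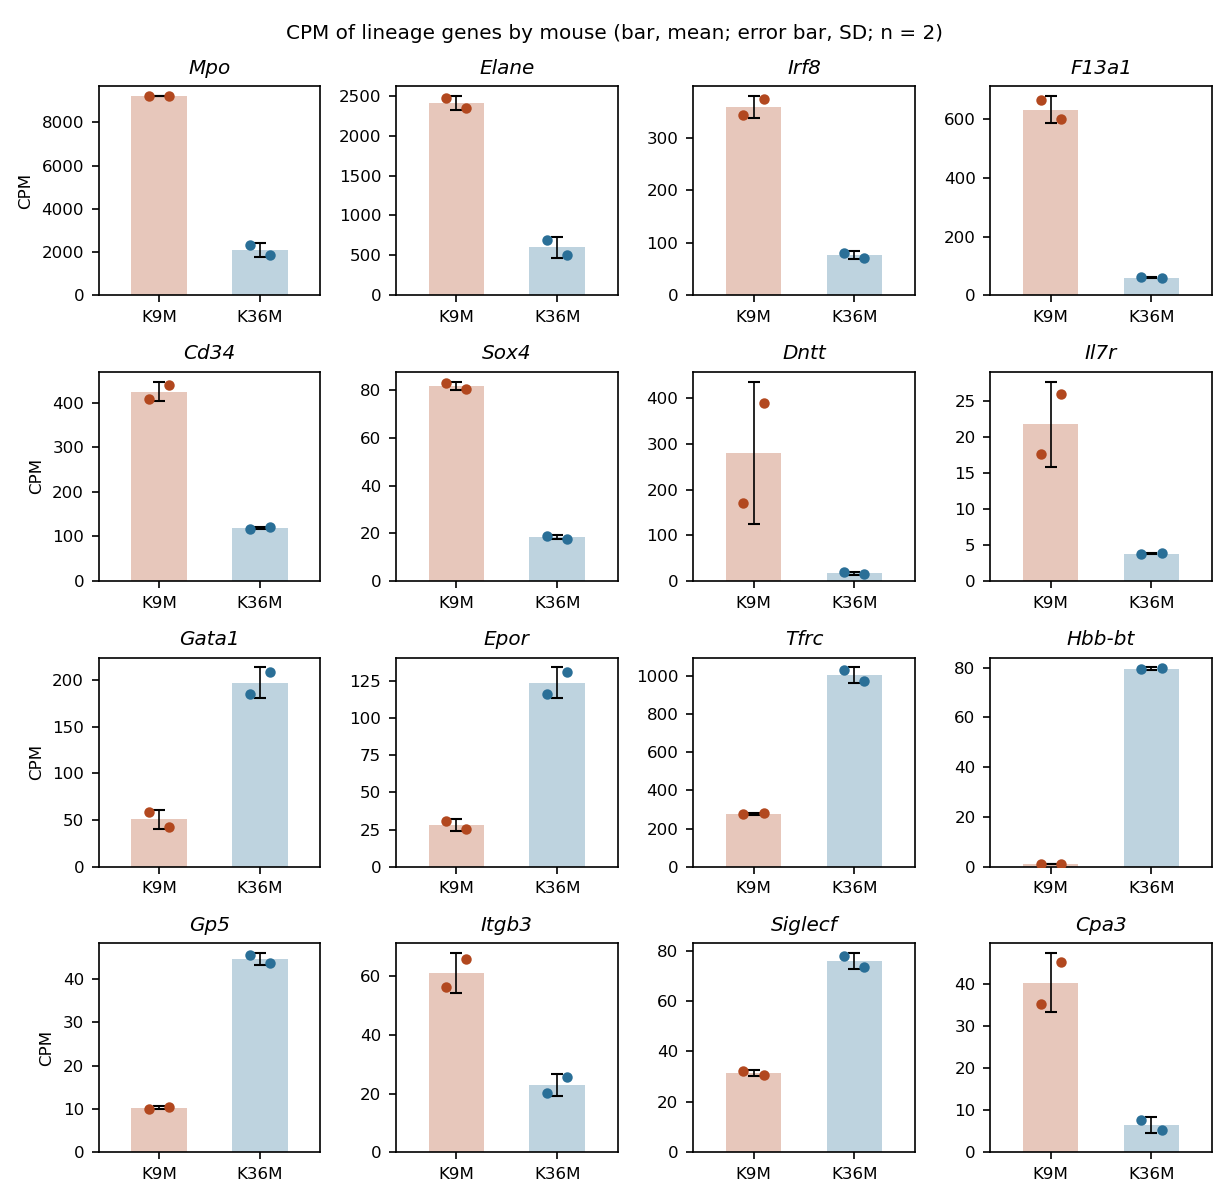
CPM of 16 genes in each mouse (points), with the group mean (bar) and SD (error bar, n = 2), K9M left and K36M right in each panel. Myeloid, stem and lymphoid genes in the upper rows stand higher in K9M and erythroid genes in the third row lower; in the bottom row Gp5 and Siglecf are lower in K9M while Itgb3 and Cpa3 are higher.

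Erythroid genes ran in the opposite direction. Of 27 tested erythroid transcription factors and receptors, 20 were lower in K9M and 3 higher (background 29.3% and 29.5%), with a median of -0.79. Gata1, the master regulator of the red cell branch, had 58.2 and 43 CPM in K9M mice, against 185 and 209 CPM in K36M mice (log2 fold change -1.97 ± 0.15 SE, adjusted p = 0.000161). Klf1, which acts beside GATA1 at globin genes, had 58.5 and 39.4 CPM in K9M mice, against 189 and 200.0 CPM in K36M mice (log2 fold change -1.99 ± 0.19 SE, adjusted p = 0.00104). Zfpm1, the GATA1 cofactor FOG1, had 131 and 115 CPM in K9M mice, against 405 and 456 CPM in K36M mice (log2 fold change -1.81 ± 0.09 SE, adjusted p = 5.2e-06). All 3 were lower in both K9M mice than in either K36M mouse. Epor, the erythropoietin receptor, had 30.9 and 25.2 CPM in K9M mice, against 116 and 131 CPM in K36M mice (log2 fold change -2.14 ± 0.11 SE, adjusted p = 7.66e-06). Gfi1b, a repressor of the erythroid and megakaryocyte branch, had 48 and 44.7 CPM in K9M mice, against 130.4 and 126 CPM in K36M mice (log2 fold change -1.47 ± 0.07 SE, adjusted p = 4.11e-06). Tfrc, the transferrin receptor that brings iron into the cell, had 274 and 282 CPM in K9M mice, against 1033 and 974 CPM in K36M mice (log2 fold change -1.85 ± 0.06 SE, adjusted p = 1.15e-06). The members that were higher in K9M were not specific to red cells, and nor were all the lower ones, among them Bcl11a at -0.89 ± 0.09. Myb, a factor of immature progenitors that declines as red cells mature, had 851 and 830.2 CPM in K9M mice, against 463 and 444 CPM in K36M mice (log2 fold change 0.89 ± 0.06 SE, adjusted p = 1e-05). The others were Lyl1, a stem and lymphoid factor related to Tal1 (0.60 ± 0.09), and Stat5b, a signal transducer of many receptors (0.25 ± 0.06). Stat5a, the close relative of Stat5b, was lower at -0.61 ± 0.08.

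The genes of heme synthesis split at the first step. Alas1, the 5-aminolevulinate synthase of most tissues, had 472 and 464 CPM in K9M mice, against 144 and 118 CPM in K36M mice (log2 fold change 1.83 ± 0.09 SE, adjusted p = 8.46e-06). Alas2, the erythroid form of the same enzyme, had 0.969 and 0.995 CPM in K9M mice, against 22.6 and 19 CPM in K36M mice (log2 fold change -4.40 ± 0.20 SE, adjusted p = 3.03e-06). The 2 isozyme genes thus moved in opposite directions, and in neither did the K9M and K36M mice overlap. All 7 enzymes that follow in the pathway were lower in K9M, with log2 fold changes between -1.95 and -1.28. Cpox, coproporphyrinogen oxidase, had 142 and 119.5 CPM in K9M mice, against 519 and 490.0 CPM in K36M mice (log2 fold change -1.95 ± 0.09 SE, adjusted p = 4.17e-06). Fech, ferrochelatase of the last step, had 77 and 63.3 CPM in K9M mice, against 239 and 258 CPM in K36M mice (log2 fold change -1.83 ± 0.10 SE, adjusted p = 9.29e-06). Among mitochondrial carriers, Slc25a38, which supplies glycine to the first step, was lower in K9M at -1.62 ± 0.09. Slc25a37, the iron carrier mitoferrin 1, was called slightly higher at 0.23 ± 0.08, and this call was lost in DESeq2, with the WT libraries in the fit, and without K9M mouse 1363 or K36M mouse 1312 (adjusted p up to 0.19). Blvrb, biliverdin reductase B, which is abundant in red cells, was lower in K9M at -2.28 ± 0.12, and its groups did not overlap. Hmox1, heme oxygenase 1 of heme breakdown, had 3.53 and 4.97 CPM in K9M mice, against 4.96 and 4.06 CPM in K36M mice and was not called (adjusted p = 0.797).

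The 4 adult globin genes were all lower in K9M. Hbb-bt, an adult beta globin, had 1.03 and 0.947 CPM in K9M mice, against 79.4 and 80.0 CPM in K36M mice (log2 fold change -6.33 ± 0.12 SE, adjusted p = 1.2e-07). Hbb-bs, its near-identical neighbour, had 6.10 and 3.36 CPM in K9M mice, against 57.9 and 65.2 CPM in K36M mice (log2 fold change -3.72 ± 0.25 SE, adjusted p = 0.000117). The alpha globin gene Hba-a1 had 2.28 and 2.13 CPM in K9M mice, against 37.6 and 44.8 CPM in K36M mice (log2 fold change -4.22 ± 0.15 SE, adjusted p = 1.36e-06). At all 3 the K36M mice were far above the K9M mice. Reads of such copies may have been divided or dropped in counting, so the separate values are uncertain. Hba-a2 had 2 counts over both K9M mice, against 94 counts over both K36M mice (K36M over K9M, ratio 47.6, 95% counting interval 12.8 to 399). The embryonic globins Hba-x, Hbb-y and Hbb-bh1 had at most 1 count in any of the 4 libraries. The whole list of globin and heme genes had 18 of 23 tested members lower and 2 higher in K9M, with a median of -1.41.

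**Figure D3:**
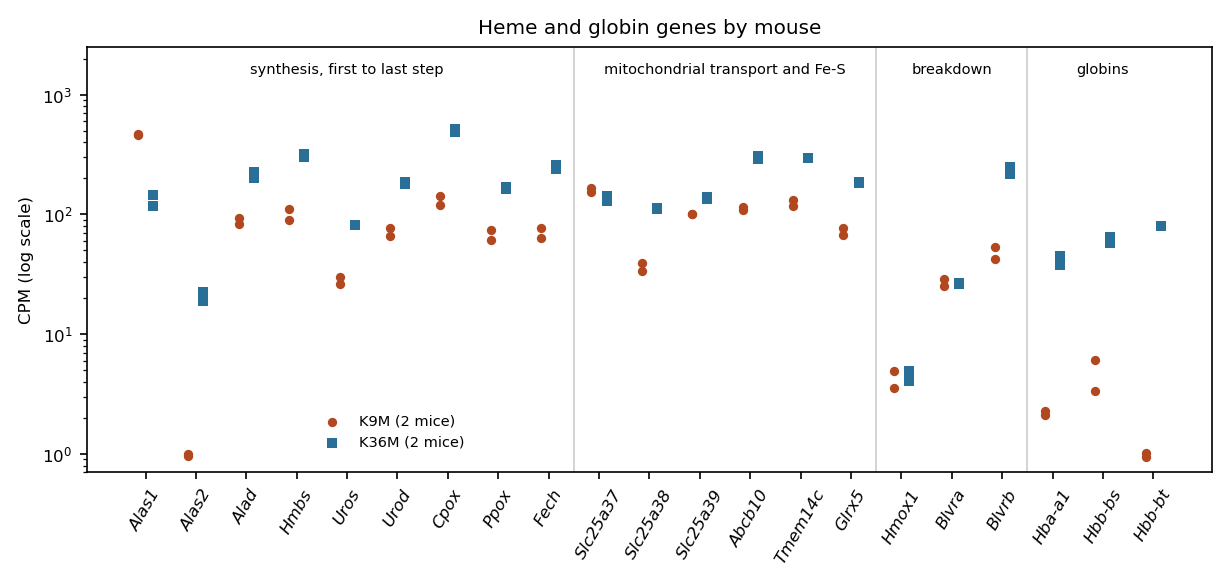
CPM on a log scale of genes of heme synthesis in pathway order, mitochondrial transport and iron-sulfur assembly, heme breakdown and globins, for each K9M mouse (circles, left) and each K36M mouse (squares, right). Alas1 stands higher in K9M, while Alas2, the 7 following enzymes and the globins stand lower.

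The start regions of 2 erythroid and 2 granulocyte genes with wide gaps are printed here so that the letters can be seen beside the values. Each is 300 bases of RefSeq sequence on GRCm38.p6, from 250 bases before the start of the gene to 50 after it, read 5′ to 3′ on the gene's strand. They are chr7:103813874-103814173 (minus strand) for Hbb-bt, chrX:150547167-150547466 (plus strand) for Alas2, chr3:106167515-106167814 (minus strand) for Chil3 and chr9:111019042-111019341 (plus strand) for Ltf. Capitals mark any match, on either strand, to 4 sets of letters. The GATA motif was searched as AGATAA. Of the motif of the kind that KLF1 binds, only the form CCACACC was searched, called the KLF1 letters below. The PU.1 motif was searched as GAGGAA. The part of a C/EBP motif searched was TTGCAA, which reads the same on both strands. None of these letter sets contains another.
Hbb-bt: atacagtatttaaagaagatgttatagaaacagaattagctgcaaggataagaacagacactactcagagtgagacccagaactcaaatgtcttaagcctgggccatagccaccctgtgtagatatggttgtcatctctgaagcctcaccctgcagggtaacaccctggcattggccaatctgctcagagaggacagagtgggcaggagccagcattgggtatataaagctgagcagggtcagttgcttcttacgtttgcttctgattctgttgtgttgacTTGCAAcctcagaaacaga
Alas2: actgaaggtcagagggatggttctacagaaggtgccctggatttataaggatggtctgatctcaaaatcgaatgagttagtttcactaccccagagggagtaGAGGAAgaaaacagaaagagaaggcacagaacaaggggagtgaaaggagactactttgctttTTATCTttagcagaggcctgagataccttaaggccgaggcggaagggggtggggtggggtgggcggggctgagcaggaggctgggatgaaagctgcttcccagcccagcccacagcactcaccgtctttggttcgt
Chil3: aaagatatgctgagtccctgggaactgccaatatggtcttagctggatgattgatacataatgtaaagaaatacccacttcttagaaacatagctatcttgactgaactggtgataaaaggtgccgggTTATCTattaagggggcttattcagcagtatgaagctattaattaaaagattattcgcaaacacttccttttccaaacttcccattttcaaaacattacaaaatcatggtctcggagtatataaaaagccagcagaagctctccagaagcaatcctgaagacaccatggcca
Ltf: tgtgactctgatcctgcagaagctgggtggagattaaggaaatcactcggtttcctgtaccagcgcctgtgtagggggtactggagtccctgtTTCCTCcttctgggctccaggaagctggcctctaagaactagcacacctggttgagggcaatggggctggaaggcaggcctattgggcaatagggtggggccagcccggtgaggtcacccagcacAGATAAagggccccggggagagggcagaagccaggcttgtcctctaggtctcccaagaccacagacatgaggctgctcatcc
In these windows the GATA letters occurred in Alas2, Chil3 and Ltf, the PU.1 letters in Alas2 and Ltf, and the C/EBP letters in Hbb-bt. The KLF1 letters CCACACC occurred in none of the 4, and other forms of the KLF1 motif were not searched. Of 27025 promoters in the table, 11.4% held the GATA letters, 7.69% those of KLF1, 28.3% those of PU.1 and 6.25% those of C/EBP. The 3 erythroid lists had a promoter entry for 61 of 79 genes. Of these, 11 (18%) held the GATA letters, 6 (9.84%) those of KLF1, 18 (29.5%) those of PU.1 and 3 (4.92%) those of C/EBP. The granulocyte-monocyte and neutrophil lists had one for 44 of 57 genes. There 7 (15.9%) held the GATA letters, 4 (9.09%) those of KLF1, 20 (45.5%) those of PU.1 and 4 (9.09%) those of C/EBP. A match is a description of the letters only.

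Red cell membrane and skeleton genes showed the lowest median of all lists. Of 29 tested members 25 were lower in K9M, 23 of them by at least 2-fold, and 2 were higher, with a median of -2.08. Slc4a1, the anion exchanger band 3, had 3.48 and 2.51 CPM in K9M mice, against 85.6 and 69.3 CPM in K36M mice (log2 fold change -4.71 ± 0.17 SE, adjusted p = 3.98e-06). Rhag, the ammonia channel of the Rh complex, had 49.1 and 31.7 CPM in K9M mice, against 259 and 317 CPM in K36M mice (log2 fold change -2.84 ± 0.26 SE, adjusted p = 0.00199). At both genes the K36M mice stood well above the K9M mice. Not all red cell genes took part. Car1, carbonic anhydrase 1, had 739.7 and 538 CPM in K9M mice, against 650.2 and 741 CPM in K36M mice (adjusted p = 0.598), with the groups overlapping. Car2 had 485 and 350.0 CPM in K9M mice, against 809 and 913 CPM in K36M mice (log2 fold change -1.05 ± 0.18 SE, adjusted p = 0.00991), a call lost without either K36M mouse and with the WT libraries in the fit. Slc2a1, the glucose transporter GLUT1, and Tmcc2 were higher in K9M, at 0.61 ± 0.13 and 1.03 ± 0.12.

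Megakaryocyte and platelet genes split within the lineage, with 11 of 27 tested members higher and 12 lower in K9M and a median of 0.16. The summed level hardly differed, with 1061 and 1096 CPM in K9M mice, against 990.0 and 1093 CPM in K36M mice. Most genes of the platelet receptor for von Willebrand factor, and that of its ligand, were lower in K9M. Gp5, glycoprotein V, had 10.1 and 10.5 CPM in K9M mice, against 45.6 and 43.7 CPM in K36M mice (log2 fold change -2.11 ± 0.10 SE, adjusted p = 3.67e-06). Log2 fold changes were -2.05 ± 0.19 for Gp9 and -1.39 ± 0.18 for Gp1ba. Gp1bb was not called, with 1.54 and 2.08 CPM in K9M mice, against 1.84 and 2.78 CPM in K36M mice, so 3 of the 4 receptor subunits were lower. Vwf itself, von Willebrand factor, had 32.7 and 30.4 CPM in K9M mice, against 76.8 and 97.2 CPM in K36M mice (log2 fold change -1.47 ± 0.12 SE, adjusted p = 6.24e-05). F2r, the thrombin receptor PAR1, had 36.2 and 34.1 CPM in K9M mice, against 125 and 147 CPM in K36M mice (log2 fold change -1.95 ± 0.09 SE, adjusted p = 4.06e-06). Each was lower in both K9M mice than in either K36M mouse. The opposite held for Itgb3, the beta chain of the fibrinogen receptor, which had 56.1 and 65.8 CPM in K9M mice, against 20.4 and 25.7 CPM in K36M mice (log2 fold change 1.41 ± 0.13 SE, adjusted p = 0.000107). Pf4, platelet factor 4, had 23.4 and 15.4 CPM in K9M mice, against 8.48 and 9.33 CPM in K36M mice (log2 fold change 1.12 ± 0.21 SE, adjusted p = 0.00275). Cd9, a tetraspanin of platelets and other cells, had 38.6 and 35.2 CPM in K9M mice, against 15.7 and 15.1 CPM in K36M mice (log2 fold change 1.26 ± 0.10 SE, adjusted p = 3.13e-05). These 3 were higher in each K9M mouse. Itga2b, the alpha chain that pairs with Itgb3, was lower in K9M at -0.37 ± 0.09.

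Stem cell and multipotent progenitor genes were mostly higher in K9M, with 19 of 31 tested members higher and 6 lower and a median of 0.65. Cd34, a surface marker of progenitors, had 409 and 440.4 CPM in K9M mice, against 117 and 120.3 CPM in K36M mice (log2 fold change 1.84 ± 0.07 SE, adjusted p = 1.31e-06). Sox4, a transcription factor of stem and lymphoid progenitors, had 83 and 80.5 CPM in K9M mice, against 18.9 and 17.8 CPM in K36M mice (log2 fold change 2.15 ± 0.08 SE, adjusted p = 1.54e-06). Hoxb4, which expands stem cells when forced, had 23.4 and 20.6 CPM in K9M mice, against 3.92 and 3.33 CPM in K36M mice (log2 fold change 2.59 ± 0.16 SE, adjusted p = 1.03e-05). The groups were well separated in all 3. Flt3, the receptor of lymphoid-primed multipotent progenitors, had 164 and 233 CPM in K9M mice, against 87.4 and 116 CPM in K36M mice (log2 fold change 0.97 ± 0.24 SE, adjusted p = 0.0347), a call lost without either K36M mouse. Slamf1, the stem cell surface marker CD150, was lower in K9M, with 2.22 and 3.69 CPM in K9M mice, against 16.4 and 17.7 CPM in K36M mice (log2 fold change -2.51 ± 0.23 SE, adjusted p = 6.67e-05). Meis1, the cofactor of Hox proteins, had 50.4 and 54.1 CPM in K9M mice, against 71.6 and 78.3 CPM in K36M mice (log2 fold change -0.52 ± 0.08 SE, adjusted p = 0.000821). So 2 surface markers used to define stem and progenitor cells, Cd34 and Slamf1, ran in opposite directions. The number of members lower in K9M was 3 instead of 6 without K9M mouse 1363. Gata2, needed for stem cell maintenance, had 109 and 99.5 CPM in K9M mice, against 94.6 and 96.6 CPM in K36M mice and was not called (adjusted p = 0.159).

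B lymphoid genes were higher in K9M in 27 of 35 tested members and lower in 4, with a median of 1.30; 24 of the 27 differed by at least 2-fold. Dntt, the terminal transferase of early lymphoid cells, had 171 and 391 CPM in K9M mice, against 18.6 and 14.1 CPM in K36M mice (log2 fold change 4.10 ± 0.68 SE, adjusted p = 0.0339). Il7r, the receptor for interleukin 7, had 17.6 and 26 CPM in K9M mice, against 3.77 and 3.83 CPM in K36M mice (log2 fold change 2.52 ± 0.21 SE, adjusted p = 4.89e-05). Ebf1, the factor that commits cells to the B lineage, had 16.6 and 29.6 CPM in K9M mice, against 7.64 and 5.11 CPM in K36M mice (log2 fold change 1.86 ± 0.35 SE, adjusted p = 0.00791). K9M mouse 1363 was the highest of the 4 at these 3 genes, and K9M mouse 1362 still lay above both K36M mice. The calls of Dntt and Ebf1 were lost when either K36M mouse was left out (adjusted p up to 0.247 for Dntt and 0.0905 for Ebf1). All 4 tested genes of the surrogate light chain group, Vpreb1, Vpreb2, Vpreb3 and Igll1, were higher in K9M, though the Vpreb1 and Vpreb2 copies are near-identical and their separate values uncertain. Pax5, which holds B cell identity, had 5.59 and 9.05 CPM in K9M mice, against 2.38 and 1.83 CPM in K36M mice (log2 fold change 1.79 ± 0.29 SE, adjusted p = 0.00114). Siglecg, an inhibitory receptor, had 60.4 and 60.1 CPM in K9M mice, against 12.1 and 11.2 CPM in K36M mice (log2 fold change 2.37 ± 0.09 SE, adjusted p = 1.61e-06). Neither overlapped between the groups. The lower members included Tcf3, the E2A gene needed throughout early lymphoid and other progenitors, with 223 and 217 CPM in K9M mice, against 406 and 434 CPM in K36M mice (log2 fold change -0.93 ± 0.06 SE, adjusted p = 1.28e-05). Bcl11a, a lymphoid factor that also represses fetal globin, had 119.9 and 135 CPM in K9M mice, against 221 and 253 CPM in K36M mice (log2 fold change -0.89 ± 0.09 SE, adjusted p = 0.000108). Without K36M mouse 1310, 2 members instead of 4 were lower. Ighm, the heavy chain of immunoglobulin M and the largest share of the list's reads, had 1133 and 541 CPM in K9M mice, against 827 and 513 CPM in K36M mice, did not pass the test (adjusted p = 0.701) and overlapped between the groups. The whole-list sum therefore separated the mutants less than its members, at 2326 and 2135 CPM in K9M mice, against 1818 and 1526 CPM in K36M mice.

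T and NK cell genes were scarce: 15 of 32 members present in the files did not pass the filter, among them the T cell receptor genes Cd3e, Cd3d and Cd3g. Of the 17 tested, 8 were higher in K9M and 0 lower, but DESeq2 called 4, and the test called 5 when K36M mouse 1312 was left out. Nkg7, a granule protein of cytotoxic cells also found in myeloid cells, made up most of the list's reads, with 170.4 and 156 CPM in K9M mice, against 93.9 and 68.1 CPM in K36M mice (log2 fold change 1.01 ± 0.16 SE, adjusted p = 0.00329). Klrd1, a chain of NK cell receptors, had 2.22 and 2.32 CPM in K9M mice, against 0.397 and 0.389 CPM in K36M mice (log2 fold change 2.51 ± 0.36 SE, adjusted p = 0.000512). Both were higher in each K9M mouse. Of 11 genes of the MHC class II pathway, 6 were higher in K9M and 0 lower. The shares called in these lists, 8 of 17 and 6 of 11, lay below the background of 58.8% called. H2-DMa, which loads peptides, had 57 and 61.5 CPM in K9M mice, against 34.2 and 36.8 CPM in K36M mice (log2 fold change 0.74 ± 0.08 SE, adjusted p = 0.000155). The antigen-presenting chain H2-Aa was low in all 4 libraries, with 4.10 and 3.41 CPM in K9M mice, against 3.82 and 2.72 CPM in K36M mice (adjusted p = 0.548). As levels with no test, WT mice had 29.3 and 38.6 CPM at H2-Aa, above both mutants, and 63.5 and 53.8 CPM at H2-DMa.

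The list of mast cell, basophil and eosinophil genes was split. Of 25 tested members 14 were higher and 4 lower in K9M. Cpa3, the carboxypeptidase of mast cell granules, had 35.3 and 45.3 CPM in K9M mice, against 7.79 and 5.22 CPM in K36M mice (log2 fold change 2.63 ± 0.21 SE, adjusted p = 0.000111). Prss34, a basophil protease, had 33.9 and 41.6 CPM in K9M mice, against 7.49 and 4.33 CPM in K36M mice (log2 fold change 2.67 ± 0.25 SE, adjusted p = 0.000302). Hdc, the enzyme that makes histamine, had 191 and 165 CPM in K9M mice, against 60.4 and 53.1 CPM in K36M mice (log2 fold change 1.65 ± 0.10 SE, adjusted p = 9.84e-06). For each, both K9M mice exceeded both K36M mice. The 4 lower members were Siglecf, Alox15, Ear1 and Il1rl1. Siglecf, a surface receptor of eosinophils, had 32.4 and 30.8 CPM in K9M mice, against 78 and 73.5 CPM in K36M mice (log2 fold change -1.26 ± 0.08 SE, adjusted p = 1e-05). Alox15, a lipoxygenase, had 0.798 and 0.568 CPM in K9M mice, against 3.37 and 2.28 CPM in K36M mice (log2 fold change -2.06 ± 0.36 SE, adjusted p = 0.00165). The eosinophil ribonuclease gene Ear1, one of a family of near-identical copies, had a log2 fold change of -0.95 ± 0.26. In each of these the K9M mice lay below the K36M mice. Il1rl1, the interleukin 33 receptor of mast cells and other cells, had 39.3 and 29.5 CPM in K9M mice, against 70.1 and 61.6 CPM in K36M mice (log2 fold change -0.94 ± 0.14 SE, adjusted p = 0.00173). The Il1rl1 call was lost when the WT libraries were in the fit. The eosinophil granule genes Prg2 and Epx were not called, and for Prg2 the groups overlapped at 198 and 160.3 CPM in K9M mice, against 207 and 104 CPM in K36M mice.

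Blood cytokine and chemokine receptors were higher in K9M in 23 of 37 tested genes and lower in 4, with a median of 0.73. Il6st, the shared signalling chain gp130, had 103 and 102 CPM in K9M mice, against 30.2 and 25.9 CPM in K36M mice (log2 fold change 1.87 ± 0.09 SE, adjusted p = 3.9e-06). Il3ra, the interleukin 3 receptor alpha chain, had 51.3 and 52.6 CPM in K9M mice, against 12.5 and 7.22 CPM in K36M mice (log2 fold change 2.39 ± 0.24 SE, adjusted p = 0.000704). Cxcr4, the receptor that holds progenitors in the marrow, had 272 and 272 CPM in K9M mice, against 120.3 and 127 CPM in K36M mice (log2 fold change 1.14 ± 0.06 SE, adjusted p = 6.72e-06). In these 3 the K9M mice were close to each other and above both K36M mice. Besides Epor, the lower members were Il18r1, Il1rl1 and Il2rg, and the number of lower members was 2 instead of 4 without K9M mouse 1362 or without K36M mouse 1312. Ifngr1, the interferon gamma receptor, had 337 and 292 CPM in K9M mice, against 289.7 and 315 CPM in K36M mice (adjusted p = 0.569), with overlapping groups. Ccr1 had 5.13 and 65.4 CPM in K9M mice, against 7.69 and 6.33 CPM in K36M mice (adjusted p = 0.354), and only K9M mouse 1363 lay above the K36M mice.

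**Figure D4:**
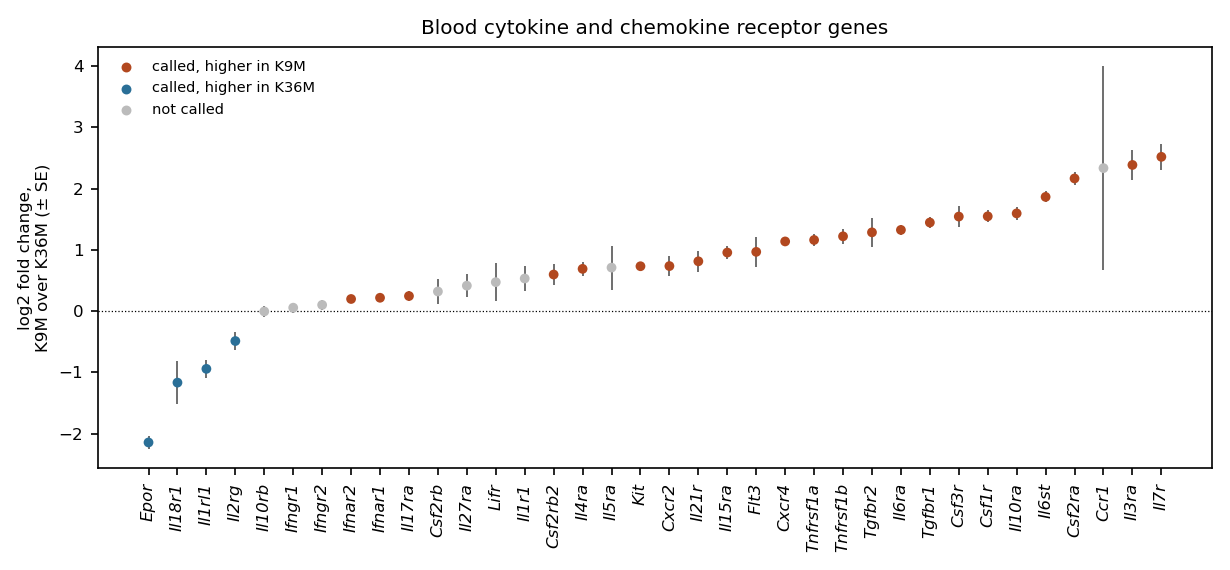
Log2 fold change, K9M over K36M, with its standard error, for 36 of the 37 tested cytokine and chemokine receptor genes, ordered by fold change. Epor has the lowest value at -2.14 and Il7r the highest at 2.52, and Ccr1 has the widest error.

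Cell division genes were lower in K9M. All 34 tested mitosis genes were lower and 0 higher, with log2 fold changes from -1.15 to -0.29, a median of -0.58 and 1 gene past 2-fold. Mki67, the proliferation antigen Ki-67, had 1202 and 1294 CPM in K9M mice, against 2155 and 2239 CPM in K36M mice (log2 fold change -0.82 ± 0.06 SE, adjusted p = 1.65e-05). Ccnb1, cyclin B1 of mitotic entry, had 102 and 93.7 CPM in K9M mice, against 209 and 226 CPM in K36M mice (log2 fold change -1.15 ± 0.07 SE, adjusted p = 1.17e-05). Top2a, the topoisomerase that untangles chromosomes, had 1055 and 1084 CPM in K9M mice, against 1516 and 1458 CPM in K36M mice (log2 fold change -0.48 ± 0.05 SE, adjusted p = 0.000143). The 2 mice of a genotype were close to each other and the groups did not overlap. DNA replication genes moved less, with 21 of 39 tested members lower and 1 higher (background 29.3% and 29.5%) and a median of -0.23. The share called in either direction, 22 of 39, lay slightly below the background of 58.8% called. Ccne1, cyclin E1 of the start of S phase, had 40.9 and 42.2 CPM in K9M mice, against 92.5 and 90.3 CPM in K36M mice (log2 fold change -1.14 ± 0.07 SE, adjusted p = 1e-05). Cdc6, a loader of the replicative helicase, had 111 and 116 CPM in K9M mice, against 195 and 196 CPM in K36M mice (log2 fold change -0.79 ± 0.06 SE, adjusted p = 2.94e-05). Rrm1, a subunit of ribonucleotide reductase, had 516 and 487 CPM in K9M mice, against 746 and 781 CPM in K36M mice (log2 fold change -0.61 ± 0.06 SE, adjusted p = 7.25e-05). Gins3, a helicase subunit, was the 1 higher member at 0.31 ± 0.11, and its call was lost in DESeq2 and without K9M mouse 1363 or K36M mouse 1312.

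Of 32 tested p53 target genes 21 were lower in K9M and 5 higher, with a median of -0.64. Zmat3, an RNA-binding protein induced by p53, had 6.73 and 7.86 CPM in K9M mice, against 34.7 and 30.2 CPM in K36M mice (log2 fold change -2.15 ± 0.14 SE, adjusted p = 1.16e-05). Sesn2, a stress-induced sestrin, had 12.5 and 13.7 CPM in K9M mice, against 40.5 and 39.5 CPM in K36M mice (log2 fold change -1.61 ± 0.10 SE, adjusted p = 1.06e-05). Ccng1, cyclin G1, had 109.8 and 99.4 CPM in K9M mice, against 228 and 204 CPM in K36M mice (log2 fold change -1.05 ± 0.08 SE, adjusted p = 2.61e-05). Cdkn1a, the cell cycle inhibitor p21, had 16.4 and 19.9 CPM in K9M mice, against 56.7 and 38.8 CPM in K36M mice (log2 fold change -1.39 ± 0.21 SE, adjusted p = 0.00257). All were lower in both K9M mice. Sesn1, a relative of Sesn2, had 78.9 and 78.9 CPM in K9M mice, against 41.3 and 48.3 CPM in K36M mice (log2 fold change 0.82 ± 0.09 SE, adjusted p = 0.000133). Trp53inp1 had 49.5 and 47.5 CPM in K9M mice, against 25.8 and 25.8 CPM in K36M mice (log2 fold change 0.91 ± 0.08 SE, adjusted p = 4.82e-05). Both were higher in each K9M mouse, so the sestrin genes Sesn1 and Sesn2 ran in opposite directions. Among the 7 cyclin-dependent kinase inhibitors tested, 5 were lower in K9M. Cdkn2a, which encodes p16 and ARF, had 1 count over both K9M mice, against 148 counts over both K36M mice (K36M over K9M, ratio 150, 95% counting interval 26.5 to 5960). Its neighbour Cdkn2b, the gene of p15, had 2 counts in K9M, against 44 counts in K36M (ratio 22.3, 95% counting interval 5.81 to 190). Both genes were detected in each K36M mouse and had almost no counts in K9M mice. Cdkn1b, the gene of p27, had 95 and 102 CPM in K9M mice, against 93.8 and 105 CPM in K36M mice, with overlapping groups (adjusted p = 0.905).

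Most genes of the enzymes and readers of the 2 lysines differed by less than 2-fold or were not called. Of 25 tested genes of H3K9 methylation 7 were higher and 10 lower in K9M (median -0.10), and of 28 of H3K36 methylation 10 were higher and 5 lower (median -0.03). These shares, 17 of 25 and 15 of 28, stand beside the background of 58.8% called. Setdb1, an H3K9 methyltransferase that silences retroelements, had 142 and 151 CPM in K9M mice, against 218 and 247 CPM in K36M mice (log2 fold change -0.67 ± 0.08 SE, adjusted p = 0.000188). Prdm2, another protein linked to H3K9 methylation, had 99.5 and 109 CPM in K9M mice, against 62 and 56.2 CPM in K36M mice (log2 fold change 0.82 ± 0.08 SE, adjusted p = 8.55e-05). Prdm16, a stem cell factor also linked to H3K9 methylation, had 7.07 and 9.57 CPM in K9M mice, against 3.57 and 2.89 CPM in K36M mice (log2 fold change 1.36 ± 0.23 SE, adjusted p = 0.00126) and was the 1 called gene of both lists to differ by at least 2-fold. Setdb1 was lower and both Prdm genes higher in each K9M mouse. Atrx and Daxx, partners that deposit H3.3, ran apart at 0.50 ± 0.06 and -0.68 ± 0.08. On the other lysine, Nsd1, an H3K36 methyltransferase, had 336 and 350.4 CPM in K9M mice, against 466 and 471 CPM in K36M mice (log2 fold change -0.45 ± 0.06 SE, adjusted p = 0.000264). Its relative Nsd2 had 311 and 340.2 CPM in K9M mice, against 272 and 236 CPM in K36M mice (log2 fold change 0.36 ± 0.08 SE, adjusted p = 0.00648). The 2 genes moved in opposite directions. Setd2, the enzyme of H3K36 trimethylation, had 273 and 278 CPM in K9M mice, against 270.1 and 279.6 CPM in K36M mice (adjusted p = 0.951). Zmynd11, a reader of that mark, had 123 and 129 CPM in K9M mice, against 71.2 and 71 CPM in K36M mice (log2 fold change 0.83 ± 0.06 SE, adjusted p = 2.61e-05). Without K9M mouse 1362, 5 H3K9 genes instead of 10 were lower, and 11 were called in all; with library size alone 6 were lower.

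Markers of stromal and endothelial cells were uneven in level, with 13 of 25 genes passing the filter on low counts, of which 6 were higher and 2 lower in K9M. The share called, 8 of 13, was near the background of 58.8% called. The member with the most reads was Pecam1, an adhesion molecule of endothelium that blood cells also express, with 143 and 152 CPM in K9M mice, against 124 and 123 CPM in K36M mice (log2 fold change 0.26 ± 0.07 SE, adjusted p = 0.0101). Its call was lost without K9M mouse 1363 and with the WT libraries in the fit. Runx2, the bone-forming factor, had 58 and 70.4 CPM in K9M mice, against 29.3 and 30.1 CPM in K36M mice (log2 fold change 1.12 ± 0.10 SE, adjusted p = 6.44e-05). The other 12 genes of the list, among them Pdgfra, Dcn and Lum, did not pass the filter. Cdh5, the endothelial cadherin, had 3 and 6 counts in K9M mice, against 1 and 3 in K36M mice. Col1a1, a collagen of bone-forming and stromal cells, had 0.228 and 0.616 CPM in K9M mice, against 8.63 and 6.50 CPM in K36M mice (log2 fold change -4.10 ± 0.38 SE, adjusted p = 6.8e-05). Col1a2 had 2.68 and 2.60 CPM in K9M mice, against 17.9 and 31 CPM in K36M mice (log2 fold change -3.21 ± 0.30 SE, adjusted p = 0.000222). Cxcl12, the chemokine of stromal niche cells, had 2.79 and 1.75 CPM in K9M mice, against 0.347 and 0.0556 CPM in K36M mice (log2 fold change 3.40 ± 0.60 SE, adjusted p = 0.00175). The collagens were lower and Cxcl12, Runx2 and Pecam1 higher in K9M, so the stromal list did not move as a block, and its summed level was 303 and 328 CPM in K9M mice, against 245 and 258 CPM in K36M mice. The part of other cells in the lineage results was not tested.

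The WT mice are set beside both mutants here, as levels with no test and with all 6 libraries scaled together. For 4 lists (granulocyte-monocyte regulators, neutrophil, monocyte and receptor genes) the K9M sums overlapped the WT sums and both K36M sums lay below both WT mice. For 5 lists, among them the 3 erythroid ones, the K9M sums overlapped WT and both K36M sums lay above both WT mice; the other 2 were the H3K9 and H3K36 enzyme lists, which differed little in sum. The neutrophil list summed to 23727 and 18991 CPM in WT mice, and the red cell membrane list to 2453 and 4169 CPM, with the WT mice further apart than the K9M mice. Both comparisons with WT share the WT libraries, so their medians are set side by side only: -0.01 for K9M over WT and -1.39 for K36M over WT in the neutrophil list, and -0.67 for K9M over WT and 1.28 for K36M over WT in the red cell membrane list.

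Lists with the 2 mutants on opposite sides of both WT mice were few. The stem cell list was the 1 list whose K9M sums lay above both WT mice and whose K36M sums lay below both; its WT sums were 1439.8 and 1308 CPM, and its medians were 0.17 for K9M over WT and -0.43 for K36M over WT. Mitosis and DNA replication were the 2 lists with K9M below both WT mice and K36M above both, with mitosis medians of -0.11 for K9M over WT and 0.46 for K36M over WT. The sums of the MHC class II, mast cell and T and NK cell lists lay below both WT mice in both mutants, and K36M lay further below. For T and NK cell genes the gap of K9M was slight, at 217 and 209 CPM, against 265 and 219 CPM in WT mice. The median of that list was -0.10 for K9M over WT. The sums of the megakaryocyte, p53 target and CDK inhibitor lists lay above both WT mice in both mutants. The megakaryocyte gap was slight, with 989.5 CPM in K36M mouse 1310, against 976 and 984 CPM in WT mice. Its medians were -0.06 for K9M over WT and 0.12 for K36M over WT. The p53 target list summed to 887 and 895 CPM in WT mice, 926 and 933 CPM in K9M mice and 1336 and 1273 CPM in K36M mice. In the B lymphoid list each mutant overlapped WT in sum, but the medians over genes were 1.06 for K9M over WT and -0.29 for K36M over WT. Dntt had 83 and 63.1 CPM and Il7r 13.4 and 7.82 CPM in WT mice.

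**Figure D5:**
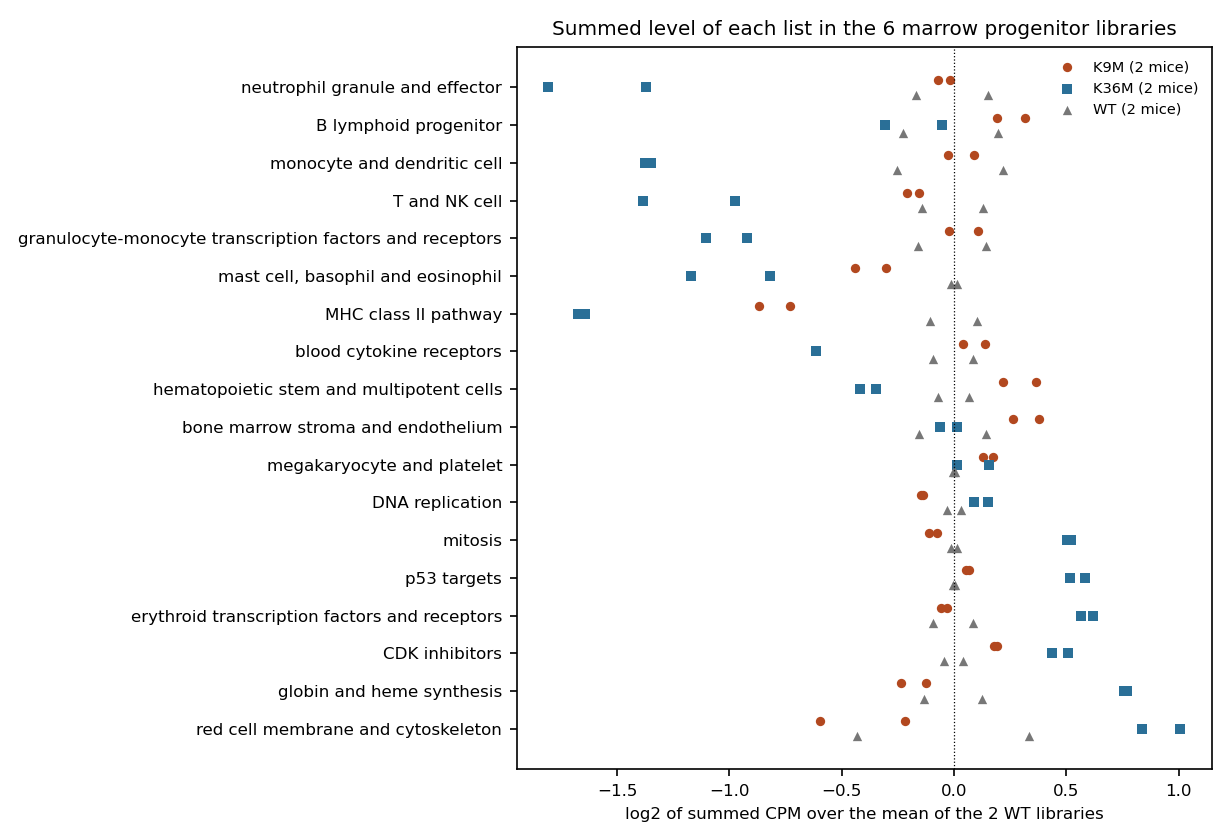
Summed CPM of each list in each mouse as log2 of the ratio to the mean of the 2 WT mice, with all 6 libraries scaled together (circles K9M, squares K36M, triangles WT). The H3K9 and H3K36 enzyme lists are not drawn. In the granulocyte-monocyte, neutrophil, monocyte and erythroid lists the K9M sums overlap the WT sums, and both K36M sums lie outside them. The WT mice are far apart in the red cell membrane list, where the median of K9M over WT was -0.67. In the stem cell, mitosis and replication lists the 2 mutants lie on opposite sides of WT.

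The largest differences outside the lineage question were near on-off. Higher in K9M by the widest fitted fold were Rps13-ps1, Ccnb1ip1, Rgs8, Rps3a3, Sh2d4a and Rps15a-ps8; 3 of the 6 are copies of ribosomal protein genes, whose reads may belong to other copies. Ccnb1ip1, a factor of meiotic crossovers, had 341 counts over both K9M mice, against 2 over both K36M mice (ratio 168, 95% counting interval 46.2 to 1400). Rgs8, a regulator of G protein signalling, had 243 counts, against 2 (ratio 120, 95% counting interval 32.8 to 996). WT mice did not take one side at these 6 genes. They had 0.281 and 0.322 CPM at Rps13-ps1 and 2.91 and 2.67 CPM at Rps3a3 and were listed at 0 at Ccnb1ip1 and Rps15a-ps8, near the K36M levels. Sh2d4a had 11.3 and 8.29 CPM in K9M mice, against 0.0992 and 0.167 CPM in K36M mice and 12.7 and 23.7 CPM in WT mice, which lay above both mutants. At Rgs8 the WT mice lay between the mutants, with 1.88 and 1.47 CPM. Lower in K9M by the widest fitted fold were C2cd4a, Hecw1, Nlrp6, Wtip, Podxl and Cda. C2cd4a, Hecw1 and Wtip had 1 count each over both K9M mice, so their place in that order is not known; the 95% counting intervals of K36M over K9M began at 121 for C2cd4a, 74.1 for Hecw1 and 53 for Wtip. Podxl, the sialomucin podocalyxin, related to CD34, had 0.456 and 1.52 CPM in K9M mice, against 219 and 269 CPM in K36M mice (log2 fold change -7.88 ± 0.32 SE, adjusted p = 6.22e-05). Cda, cytidine deaminase, had 0.228 and 0.0474 CPM in K9M mice, against 26.4 and 34.1 CPM in K36M mice (log2 fold change -7.79 ± 0.35 SE, adjusted p = 5.2e-06). Nlrp6, an inflammasome sensor, had 0.171 and 0.379 CPM in K9M mice, against 72.8 and 72.5 CPM in K36M mice (log2 fold change -7.97 ± 0.18 SE, adjusted p = 1.68e-07). WT mice had 1.78 and 2.62 CPM at Podxl, 0.0469 and 0.184 CPM at Cda and 0.375 and 0.644 CPM at Nlrp6, nearer to the K9M than to the K36M levels. Podxl and Cd34, which encode related sialomucins, ran in opposite directions between the mutants.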

How the data were processed

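Read counts per gene were deposited by the authors, who, per the submitters' processing notes, used STAR, HTSeq and the mm9 build; versions, annotation and use of strand are not given in the sources used here, so reads of overlapping or antisense genes may be mixed. Each library listed 37620 gene IDs, of which 32897 were named from a GENCODE M21 table of GRCm38. The 5 entries that name no gene were left out of library sizes and tests; reads in no feature were 9.89% to 11.4% and reads without a unique alignment 22.2% to 23.2% of all entries in these 4 libraries.

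The 4 libraries were fitted in R 4.3.3 with edgeR 4.0.16: TMM scaling, filterByExpr, robust quasi-likelihood fits with 2 residual degrees of freedom, and Benjamini-Hochberg adjustment over all 14208 genes tested with a threshold of 0.05. Fold changes are K9M over K36M. The common biological coefficient of variation was 0.0931. Groups with 1 to 3 counts are given as a ratio with an exact 95% binomial interval, which covers counting error only. The tests were run on simulated data first. Alternatives were DESeq2 1.42.0, limma-voom (limma 3.58.1), other scaling and filters, a fit without robust estimation, WT added, stricter thresholds and each library left out.

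Named were the 6 largest differences each way among genes whose mean log2 CPM reached 1, with separate groups and a symbol that is no predicted model; of each list, the 2 called members with the smallest adjusted p each way and the 2 of highest mean CPM; and Kit, H3f3a and H3f3b, 109 genes in all. Another 73 were added after their values were seen, as were Mmp8, the Gbp and Hox families and the smaller groups within lists. The members and lists were chosen with earlier results of these data known. Promoter sequences are from RefSeq on GRCm38.p6 and were matched by symbol. The other 12 libraries of the series were not analysed here, and values of some genes of the lists are not reported here.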

Additional observations from a re-analysis of the deposited data

How the results depend on the processing

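No paired analysis was possible because the K9M and K36M mice share no number in the labels. The 8356 genes called became 8370 with DESeq2 size factors, 8373 with library size alone, 6819 with DESeq2's test, 8339 with limma-voom, 8991 with no filter on low counts, 7235 with a CPM of at least 1 in all 4 libraries, 8310 without robust estimation, 7850 with WT added, 6272 at an adjusted p of 0.01, and 6657 to 7554 with 1 library left out. A 2-fold minimum left 3060, of which 1755 were higher and 1305 lower in K9M. Library size alone moved the median log2 fold change of all genes to 0.08 and the share of calls higher in K9M to 56.4%, from 50.1%. Of 182 genes selected by name, 168 were called; 0 of these changed direction, and 22 lost the call under at least 1 alternative at the 0.05 threshold, among them Flt3, Prtn3, Ctsg, Ltf and Dntt with no filter. Mcm6 lost it in 7 of these alternatives. Uncalled genes near 0 changed sign: Cdkn1b (0.061 with library size alone, 0.0063 with no filter, 0.0029 with WT added) and Cdkn2c (0.025 with library size alone). With 1 library left out, log2 fold changes ranged from -0.094 to 0.069 for Cdkn1b, -0.14 to 0.063 for Cdkn2c, -0.36 to 0.098 for Car1, -0.037 to 0.17 for Ifngr1, -0.30 to 0.77 for Ighm, -0.21 to 0.79 for Prg2, -0.095 to 0.69 for Cebpe and -0.44 to 3.23 for Ccr1; the cause was not tested. Each such fit took the spread of the single remaining mouse from the other group. T and NK cell genes called numbered 13 with no filter and 2 with the strict one, and stromal genes called 5 with the strict one, where fewer genes were tested. With 2 mice per group, p-values rest on 2 residual degrees of freedom and moderation across genes, and genes of few counts could not be ranked.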

Other observations

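The next 6 genes are those of the largest fold changes, 3 each way, among called genes outside the lists whose mean log2 CPM reached 5, leaving out predicted models, overlapping groups and genes named above; they were chosen after their values were seen. Erfe, which encodes erythroferrone, a hormone that red cell precursors release to lower hepcidin, had 1.25 and 1.23 CPM in K9M mice, against 67 and 65.5 CPM in K36M mice (log2 fold change -5.73 ± 0.12 SE, adjusted p = 1.68e-07). Tjp1, a protein of tight junctions, had 4.96 and 5.87 CPM in K9M mice, against 86.4 and 103 CPM in K36M mice (log2 fold change -4.12 ± 0.13 SE, adjusted p = 1.26e-06). Mt2, a metal-binding metallothionein, had 15.2 and 8.57 CPM in K9M mice, against 157 and 169.6 CPM in K36M mice (log2 fold change -3.80 ± 0.27 SE, adjusted p = 0.000637). All 3 were lower in both K9M mice, and WT mice had 1.17 and 1.47 CPM at Erfe, 14.4 and 14.9 CPM at Tjp1 and 25.1 and 48.8 CPM at Mt2. In the other direction, Mgam, a maltase-glucoamylase, had 114 and 138 CPM in K9M mice, against 7.04 and 4.06 CPM in K36M mice (log2 fold change 4.49 ± 0.24 SE, adjusted p = 0.000108). Dock9, an activator of CDC42, had 109 and 116 CPM in K9M mice, against 13.4 and 11.4 CPM in K36M mice (log2 fold change 3.18 ± 0.10 SE, adjusted p = 1.13e-06). Afap1, an actin filament-associated protein, had 58.9 and 55.8 CPM in K9M mice, against 6.35 and 6.83 CPM in K36M mice (log2 fold change 3.12 ± 0.10 SE, adjusted p = 1.15e-06). The K9M mice lay above the K36M mice at each, and WT mice had 100.5 and 61.9 CPM at Mgam, 86.4 and 49.2 CPM at Dock9 and 49.4 and 47.7 CPM at Afap1.

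Interferon-inducible guanylate-binding protein genes and the Hox genes were chosen after their values were seen. The first, a family with similar copies, were all higher in K9M: 7 of 7 tested (background 29.5%), with a median log2 fold change of 1.78. Gbp2 had 16.9 and 18.6 CPM in K9M mice, against 4.12 and 6.22 CPM in K36M mice (log2 fold change 1.78 ± 0.20 SE, adjusted p = 0.000187). Gbp4 had 1.99 and 8.52 CPM in K9M mice, against 0.298 and 0.278 CPM in K36M mice. At Gbp4, Gbp8 and Gbp9 the higher K9M value was that of mouse 1363, and these 3 calls were lost without either K36M mouse. The Gbp7 call was lost without K9M mouse 1363 or K36M mouse 1310. Mouse 1363 was also the higher K9M mouse at Ccr1, Ccr2 and Dntt. Of 11 tested Hox genes, 9 were higher in K9M (background 29.5%) and 1, Hoxc4, lower. Several of the higher ones, Hoxb4 among them, were already counted in the stem cell list.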
